A study of Mus musculus with 4 samples.

Results

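The 10 genes described here are feedback inhibitors of mitogen-activated protein kinase (MAPK) signalling, together with Phlda1, whose transcript serves as a readout of it. They were measured in HT22, an immortalised mouse hippocampal cell line. They are the dual-specificity phosphatases Dusp1, Dusp4, Dusp5 and Dusp6, the Sprouty genes Spry1, Spry2 and Spry4, the Sprouty-related genes Spred1 and Spred2, and Phlda1. They were chosen by name, with earlier results of these data known. All 10 were found among the 16846 genes of the deposited count table. RNA was measured by sequencing in 4 groups: cells with a control short hairpin RNA (shRNA, labelled sh-Ctrl), cells whose shRNA targets Ntoco, a long noncoding RNA (sh-Ntoco), cells with an empty vector (Vector) and cells overexpressing Ntoco (Lv-Ntoco). The labels name 1 sample per group, and the table holds 2 numbered libraries for each. All groups are the same cell line with no other treatment named, although the titles number the cells HT22 to HT25. The level of Ntoco itself was not analysed here, so it gives no check of the labels.

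Growth factors bind receptor tyrosine kinases, which load the small GTPase Ras with GTP and start a relay of the kinases RAF, MEK and ERK. Active ERK enters the nucleus and, through ETS and serum response factors, raises the transcription of its own inhibitors. Dual-specificity phosphatases remove the activating phosphates from ERK, JNK or p38, and Sprouty and Spred proteins act upstream, near Ras and RAF. In neurons and neuron-derived cells the cascade serves growth factor, synaptic and stress signals, and the transcripts of several of these inhibitors are commonly used as a readout of ERK activity.

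Library totals ranged from 18452588 to 19859041 counts, and 12115 genes passed the filter on low counts. Levels are given as CPM (counts scaled to the library total), scaled between libraries with edgeR's TMM factors. Of the 10 neuronal markers examined, 7 had a row, their summed level was 0.690 to 1.38 CPM, and Map2, Tubb3, Syt1, Gad1 and Nefl stayed under 3 counts in every library. Defining neuronal markers were thus at or near 0. The 6 fibroblast markers, with Col1a1 and Col1a2 high and Dcn and Lum under 3 counts, summed to 3393 and 3360 CPM in the control shRNA libraries. The sum was 4848 and 1464 CPM in knockdown libraries 1 and 2, 1334 and 2317 CPM with the vector, and 2341 and 2114 CPM with overexpression. In these bulk libraries, fewer cells of a type and less RNA per cell cannot be told apart.

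Of the 10 genes, 9 were expressed at a level that could be tested. Spry1 was not: it had 1 count in control shRNA library 1, 2 counts in knockdown library 1 and 0 counts in the other 6 libraries. Its close relatives Spry2 and Spry4 had 345 to 1114 counts in every library. Spry1 (Entrez Gene 24063, chromosome 3, 37639947 to 37644599) is left out of every count of members below.

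The highest level per gene length was that of Dusp6, followed by Dusp4. In the authors' FPKM values, which divide counts by gene length and library size, Dusp6 had a mean of 46.1 over the 8 libraries (31.4 to 73.7) and Dusp4 one of 34.2 (20.6 to 53.9). Dusp1 had a mean of 20.6 FPKM (7.83 to 42.4) and Phlda1 one of 13.9 FPKM (8.37 to 23.4). Dusp6 was above Dusp4, and Dusp4 above Dusp1, in 8 of 8 libraries, while Dusp1 was above Phlda1 in 6 of 8. Below them, Spred1 had 8.25 FPKM (6.75 to 9.78), Dusp5 7.32 FPKM (2.58 to 14.4) and Spry2 7.15 FPKM (4.61 to 9.08). These 3 did not hold a fixed order, with Spred1 above Dusp5 in 5 of 8 libraries and Dusp5 above Spry2 in 5 of 8. Spry4 had 3.50 FPKM (1.80 to 5.47) and Spred2 1.48 FPKM (1.07 to 2.0).

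The lower part of that order depended on the lengths used. The FPKM values imply a length of 37937 bases for Spred2, where the exons of GENCODE M21 cover 4619 bases. They imply 10374 bases for Spry4 and 4440 for Spry2, against 4755 and 2087 bases of GENCODE exons. For Dusp1 the implied length was shorter, 1942 against 3311 bases. With the GENCODE exon lengths in place of the authors', Spred2 had a mean of 12.2 length-scaled CPM (8.81 to 16.5) and moved from below Spry4 to above Dusp1 and Spred1. Spry2 moved to the third place, at 15.2 (9.82 to 19.3). Phlda1 (12.3), Spred2 (12.2) and Dusp1 (12.1) were then level, and Dusp6 (47.4) and Dusp4 (30.3) stayed first and second. The comparisons between groups that follow use 1 gene at a time and do not depend on its length.

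Dusp1 and Dusp5, inducible phosphatases of the nucleus, had the widest ranges over the 8 libraries. Dusp1 (Entrez Gene 19252, chromosome 17, 26505591 to 26508472) acts on JNK and p38 as well as ERK. Control shRNA libraries 1 and 2 held 43.6 and 79.6 CPM, knockdown libraries 1 and 2 held 46.5 and 14.5 CPM. The vector pair stood at 37.0 and 25.1 CPM and the overexpression pair at 38 and 34.3 CPM. Control shRNA library 2 was thus the highest and knockdown library 2 the lowest, a 5.47-fold range, and the knockdown libraries lay on both sides of control shRNA library 1.

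Dusp5 (Entrez Gene 240672, chromosome 19, 53529145 to 53541809) acts on ERK. It had 5.29 and 25.3 CPM in control shRNA libraries 1 and 2, against 17.6 and 4.49 CPM in knockdown libraries 1 and 2. With the vector it reached 11.2 and 19.4 CPM, with overexpression 13.4 and 9.32 CPM. The range was 5.63-fold, and the 2 control shRNA libraries alone differed 4.78-fold, and the groups overlapped in all 3 comparisons.

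The upstream sequences of these phosphatases are shown because they hold elements known to respond to kinase signalling, and because these genes varied most. They were thus picked with both known, and whether the elements play a part in the ranges was not tested. RefSeq promoter windows (GRCm38.p6, 250 bases before to 50 after the start) were at hand for 7 of the 10 genes, and Dusp4, Spry4 and Phlda1 were not among them. The first stretch runs from 200 to 121 bases before the Dusp1 start (chr17:26508593-26508672, minus strand), with matches to the cAMP response element and its core in capitals. The other runs from 100 to 21 bases before the Dusp5 start (chr19:53529045-53529124, plus strand), with 2 adjacent CArG boxes, the element bound by serum response factor, and the core TGACG on the minus strand in capitals.
Dusp1: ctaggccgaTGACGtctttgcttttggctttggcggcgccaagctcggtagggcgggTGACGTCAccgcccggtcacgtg
Dusp5: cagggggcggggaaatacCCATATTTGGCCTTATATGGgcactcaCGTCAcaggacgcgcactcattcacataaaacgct

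The full element TGACGTCA was found, on either strand, in the Dusp1 window only, and in 1.79% of the 32851 RefSeq promoter windows. Its core TGACG, which lies within the full element, was in the windows of Dusp1, Dusp5 and Spred2, and in 20.8% of all windows. A CArG box was in the Dusp5 window only, and in 1.63% of all windows. The ETS core CCGGAA was in the Spry2 window, 34 bases after the start, and in 14.9% of all windows. The AP-1 site TGAGTCA (5.20% of all windows), the TATA box TATAAA (13.6%) and an NF-kB element (0.155%) were in 0 of the 7 windows. These matches describe the letters of the windows, not binding.

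The other phosphatases were more abundant and varied less. Dusp4, a nuclear phosphatase of ERK and JNK (Entrez Gene 319520, chromosome 8, 34807610 to 34819894), had control shRNA levels of 81.9 and 102 CPM and knockdown levels of 59.1 and 47.8 CPM. Its levels with the vector were 81.1 and 132 CPM, and with overexpression 89.1 and 72.4 CPM. Both knockdown libraries were below the 6 others. Dusp6, the cytoplasmic phosphatase specific to ERK (Entrez Gene 67603, chromosome 10, 99263231 to 99267489), gave 119 and 148 CPM in the control shRNA pair of libraries, and the knockdown pair stood at 168 and 110 CPM. The vector pair stood at 121 and 239 CPM and the overexpression pair at 179 and 103 CPM. Vector library 2 was the highest and overexpression library 2 the lowest, and the groups overlapped in all 3 comparisons.

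The Sprouty genes restrain receptor signalling to Ras, and both were highest in vector library 2 and lowest in overexpression library 2. Spry2 (Entrez Gene 24064, chromosome 14, 105891947 to 105896819) gave 21.7 and 37.1 CPM in control shRNA libraries 1 and 2, against 34.9 and 33.0 CPM in knockdown libraries 1 and 2. With the vector it reached 37.3 and 40.7 CPM, with overexpression 28.2 and 20.9 CPM, so both overexpression libraries were below both vector libraries. Spry4 (Entrez Gene 24066, chromosome 18, 38586247 to 38601347) had control shRNA levels of 32.8 and 51.9 CPM and knockdown levels of 38.6 and 25.7 CPM. Its levels with the vector were 29.9 and 57.4 CPM, and with overexpression 34.4 and 19.0 CPM, overlapping in every comparison.

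The Spred genes, which hold back RAF activation with the help of the Ras inhibitor neurofibromin, were the steadiest. Spred1 (Entrez Gene 114715, chromosome 2, 117121071 to 117182279) gave 60.4 and 61.8 CPM in the control shRNA pair of libraries, and the knockdown pair stood at 67.8 and 57.7 CPM. The vector pair stood at 53.2 and 48.3 CPM and the overexpression pair at 62.6 and 55.2 CPM, a 1.40-fold range over all 8. Spred2 (Entrez Gene 114716, chromosome 11, 19924442 to 20024026) gave 68.3 and 66.2 CPM in control shRNA libraries 1 and 2, against 74.3 and 44.7 CPM in knockdown libraries 1 and 2. With the vector it reached 42.6 and 49.9 CPM, with overexpression 58.3 and 44.4 CPM. Both vector libraries were below both control shRNA libraries for each Spred gene.

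Phlda1, a pleckstrin homology domain protein whose transcript is often used to report ERK activity (Entrez Gene 21664, chromosome 10, 111506286 to 111508649), had a pattern close to that of Dusp4. It had control shRNA levels of 22.7 and 31.3 CPM and knockdown levels of 19.4 and 15.6 CPM. Its levels with the vector were 28.4 and 46.1 CPM, and with overexpression 31.2 and 23.0 CPM. As with Dusp4, both knockdown libraries were below the 6 others.

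**Figure D1:**
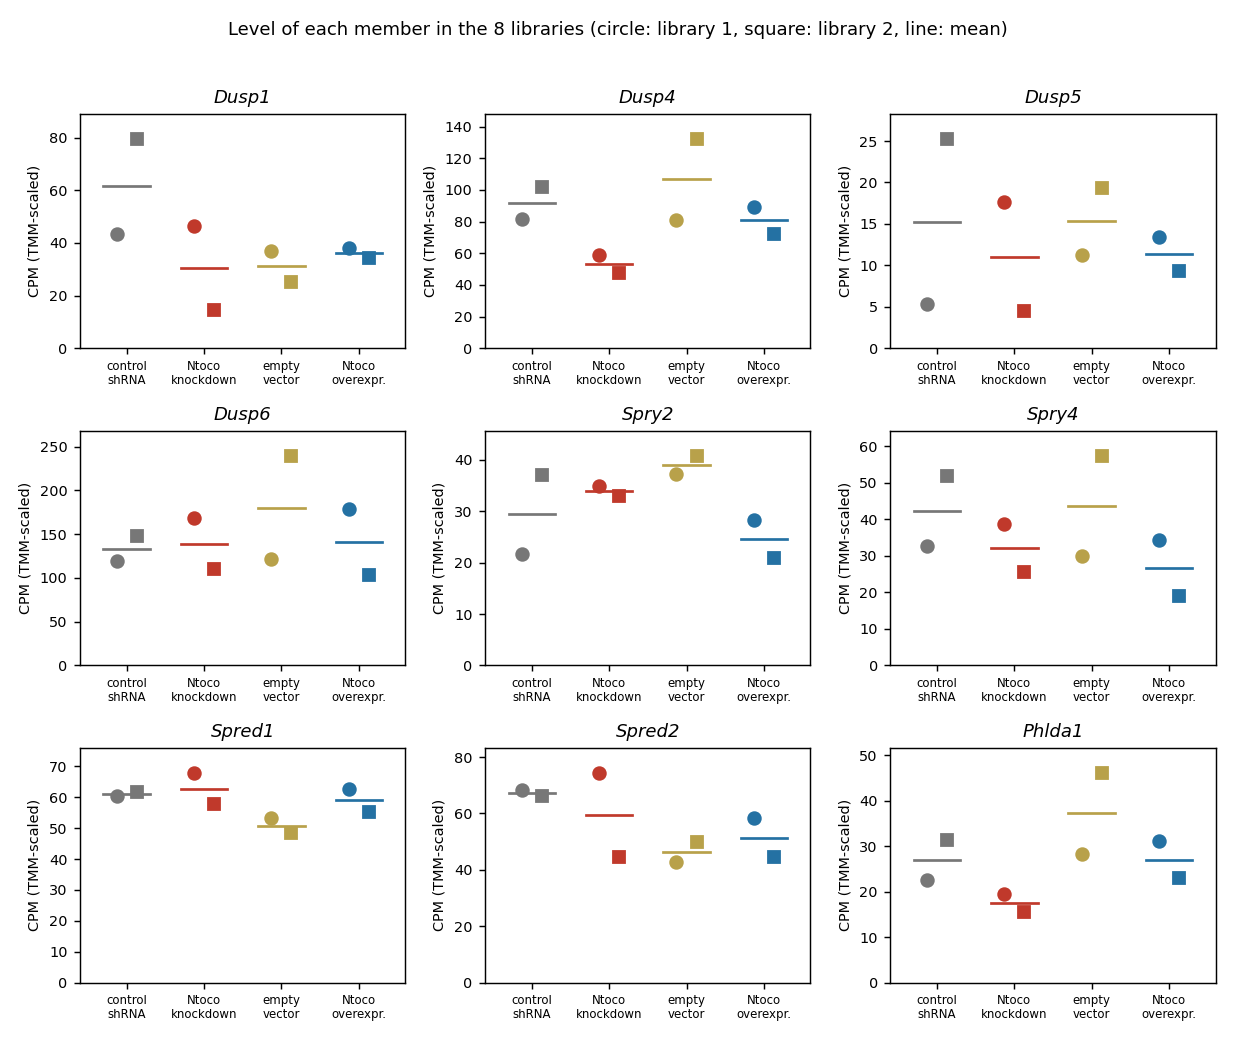
Level of each of the 9 tested genes (vertical axis, TMM-scaled CPM, from 0) in the 4 groups (horizontal axis), with circles for library 1, squares for library 2 and lines for the group mean (n = 2). The Dusp4 and Phlda1 knockdown libraries sit below all others (47.8 and 59.1 CPM for Dusp4), while the Dusp5 control shRNA libraries lie 4.78-fold apart.

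The knockdown comparison asks which transcripts differ when Ntoco is lowered. Dusp4 and Phlda1 were lower in both knockdown libraries than in both control shRNA libraries. The Dusp4 mean was 91.7 ± 13.9 CPM with the control shRNA against 53.4 ± 8.01 CPM after knockdown (SD, n = 2), which gives a log2 ratio of -0.78 (SE 0.28, 95% interval -1.42 to -0.14). Phlda1 averaged 27.0 ± 6.10 and 17.5 ± 2.67 CPM, a log2 ratio of -0.62 (SE 0.32, -1.35 to 0.11). Dusp1 had the lowest log2 ratio, -1.01 (SE 0.52, -2.22 to 0.19), with overlapping groups. The other log2 ratios were -0.47 (SE 0.79) for Dusp5, 0.06 (SE 0.40) for Dusp6, 0.21 (SE 0.29) for Spry2, -0.40 (SE 0.43) for Spry4, 0.04 (SE 0.18) for Spred1 and -0.18 (SE 0.27) for Spred2.

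With edgeR's quasi-likelihood test over all genes, 0 of the 9 were called in the knockdown (adjusted p under 0.05), and 0.0% of all genes were. The lowest adjusted p among the 9 was 0.992. At an unadjusted p under 0.05 there was 1 member, Dusp4, against 3.12% of all genes tested. DESeq2 and limma-voom also called 0 of the 9, with 2 (Dusp1 and Dusp4) and 1 (Dusp4) at an unadjusted p under 0.05. Over all their genes, DESeq2 (run without the filter on low counts) had 442 and limma-voom 357 at that level. Groups did not overlap in 2 of the 9, against 29.2% of all genes in either direction. Both were lower (14.1% of all genes), and 0 were higher (15.1%). The median log2 ratio of the 9 was -0.40, beside 0.01 over all genes tested, and 6 of the 9 were below 0, beside 49.4% of all genes. Without knockdown library 2 the median was 0.14, and without control shRNA library 2 it was -0.029.

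The overexpression comparison asks the same of raised Ntoco. Spry2 was lower and Spred1 higher in both overexpression libraries than in both vector libraries. Spry2 averaged 39.0 ± 2.45 CPM with the vector and 24.5 ± 5.21 CPM with overexpression (SD, n = 2), a log2 ratio of -0.67 (SE 0.29, 95% interval -1.34 to 0.0068). Spred1 averaged 50.7 ± 3.43 and 58.9 ± 5.24 CPM, a log2 ratio of 0.22 (SE 0.18, -0.21 to 0.64). Spry4 had the lowest log2 ratio, -0.71 (SE 0.43, -1.70 to 0.28). The others were 0.22 (SE 0.52) for Dusp1, -0.40 (SE 0.28) for Dusp4, -0.43 (SE 0.79) for Dusp5, -0.36 (SE 0.40) for Dusp6, 0.15 (SE 0.27) for Spred2 and -0.46 (SE 0.31) for Phlda1.

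With edgeR 0 of the 9 passed in the overexpression comparison (0.0% of all genes; lowest adjusted p among the 9 0.598). At an unadjusted p under 0.05 edgeR had 0 of the 9, against 7.62% of all genes, and DESeq2 and limma-voom had 1 each, Spry2. Over all their genes, DESeq2 had 1100 and limma-voom 959 at that level. Adjusted over all genes, both of those tools called 0 of the 9. Groups did not overlap in 2 of the 9, where 47.2% of all genes did not overlap. Of these, 1 was higher (24.1% of all genes) and 1 lower (23.1%), so the share among the 9 was not above the background. The median log2 ratio was -0.40, beside -0.01 over all genes, and 6 of the 9 were below 0, beside 50.5% of all genes. The median was -0.0055 without vector library 2, -0.73 without vector library 1, -0.70 without overexpression library 1 and -0.19 without overexpression library 2.

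The empty vector and control shRNA cells are both controls. Dusp1, Spred1 and Spred2 were lower, and Spry2 higher, in both vector libraries than in both control shRNA libraries. Dusp1 averaged 61.6 ± 25.5 CPM with the control shRNA and 31.1 ± 8.40 CPM with the vector (SD, n = 2), a log2 ratio of -0.99 (SE 0.52, 95% interval -2.19 to 0.22). Spred2 averaged 67.3 ± 1.53 and 46.3 ± 5.15 CPM (log2 ratio -0.54, SE 0.27), and Spred1 61.1 ± 0.942 and 50.7 ± 3.43 CPM (-0.27, SE 0.18). Spry2 had a log2 ratio of 0.41 (SE 0.29), and with upper-quartile scaling its groups overlapped.

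Of the remaining members, Phlda1 had a vector log2 ratio of 0.46 (SE 0.31), Dusp6 0.44 (SE 0.40), Dusp4 0.22 (SE 0.27), Spry4 0.04 (SE 0.43) and Dusp5 0.0016 (SE 0.79). With edgeR 0 of the 9 passed (0.0% of all genes), and 0 had an unadjusted p under 0.05, against 12.5% of all genes. DESeq2 and limma-voom called 0 of the 9, with 0 at an unadjusted p under 0.05, where they had 1752 and 1534 over all their genes. Groups did not overlap in 4 of the 9, where 51.1% of all genes did not: 3 were lower (26.5%) and 1 higher (24.6%). The median log2 ratio was 0.04, and 6 of the 9 were above 0, beside 49.7% of all genes. The vector and knockdown comparisons share the control shRNA libraries, and the vector and overexpression comparisons share the vector libraries. How the shRNA and vector controls differ in delivery cannot be told apart from the other differences between them.

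The test of whether overexpression and knockdown had different effects called 0 of the 9 with edgeR (0.0% of all genes), and 0 had an unadjusted p under 0.05, against 6.92% of all genes. DESeq2 and limma-voom called 0 of the 9, with 0 at an unadjusted p under 0.05, where they had 1042 and 852 over all their genes. The widest differences, overexpression minus knockdown, were 1.23 for Dusp1 (log2, SE 0.73, 95% interval -0.47 to 2.93) and -0.87 for Spry2 (SE 0.41, -1.83 to 0.078). Spred1 had 0.18 (SE 0.26, -0.42 to 0.78), and its interval was the narrowest. Opposite effects of lowered and raised Ntoco were thus not detectable for any of the 9 at this replication.

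**Figure D2:**
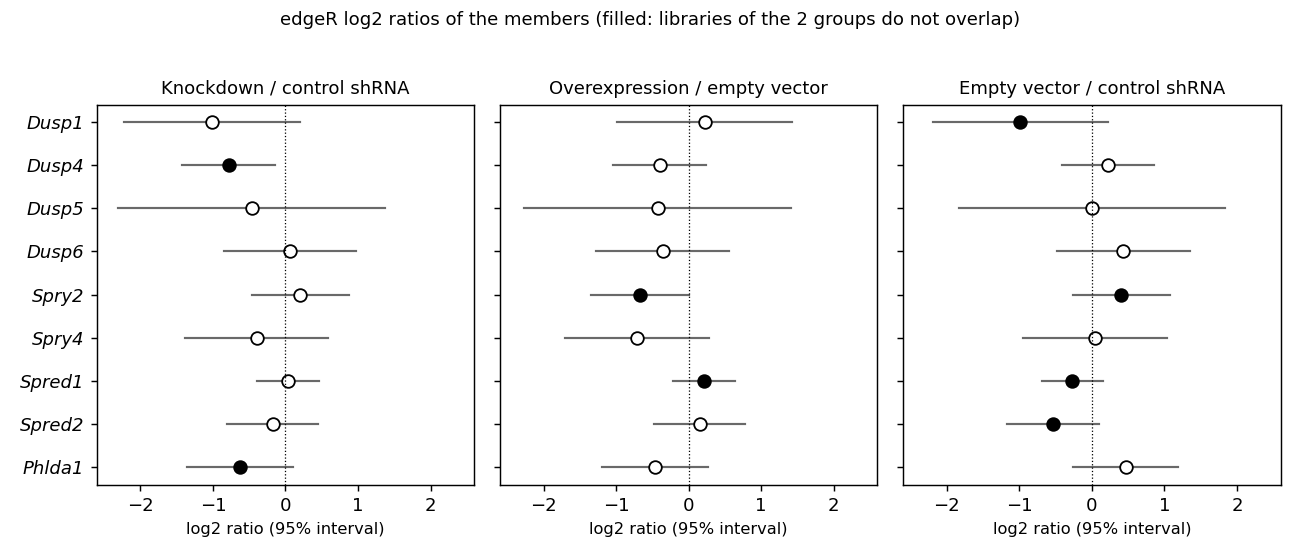
Log2 ratios of the 9 genes from edgeR (horizontal axis) in the knockdown, overexpression and vector comparisons, with 95% intervals as lines and filled points where the libraries of the compared groups do not overlap. Filled points are Dusp4 and Phlda1 in the knockdown, Spry2 and Spred1 with overexpression, and Dusp1, Spry2, Spred1 and Spred2 for the vector; only the Dusp4 knockdown interval (-1.42 to -0.14) lies wholly on one side of 0.

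The members differed between the libraries of a group in a shared direction. In the control shRNA group 8 of the 9 were higher in library 2 than in library 1 (50.7% of all genes were), and in the vector group 7 of 9 were (51.5% of all genes). In the knockdown group 9 of 9 were lower in library 2 (49.3% of all genes), and in the overexpression group 9 of 9 were lower in library 2 as well (50.7% of all genes). The exceptions were Spred2 in the control shRNA group, and Dusp1 and Spred1 in the vector group. The numbers only name the libraries, and nothing in the labels ties the same number across groups.

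The widest of these differences were those of Dusp5 and Dusp1. Dusp5 differed by 2.15 (log2, library 2 minus library 1) in the control shRNA group, a larger absolute difference than in 99.7% of all genes tested, and by -1.86 in the knockdown group, larger than in 97.6%. Dusp1 differed by 0.86 and -1.64 there, larger than in 93.2% and 96.4% of genes. In the vector and overexpression groups the widest were Dusp6 (0.98, larger than in 91.9%) and Spry4 (-0.84, larger than in 92.6%). Spred1 differed by at most 0.23 in absolute value in any group. The median absolute difference of the 9 was 0.46, 0.58, 0.69 and 0.43 for control shRNA, knockdown, vector and overexpression, beside 0.24, 0.38, 0.31 and 0.24 over all genes.

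The share of a gene's variance that lay between groups differed among the members. It was 72.8% for Dusp4, 69.2% for Phlda1 and 67.7% for Spred1. For Spry2 it was 56.9%, for Spred2 47.0%, for Dusp1 44.6% and for Spry4 36.2%. It was 14.3% for Dusp6 and 9.53% for Dusp5, beside a median of 51.7% over all genes tested. Dusp4 and Phlda1 thus followed the groups most closely. Spred2, Dusp1, Spry4, Dusp6 and Dusp5 were below the median of all genes, Dusp6 and Dusp5 the furthest. With 4 groups of 2 libraries a sizeable share lies between groups even without a group effect, so a share alone shows no effect.

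**Figure D3:**
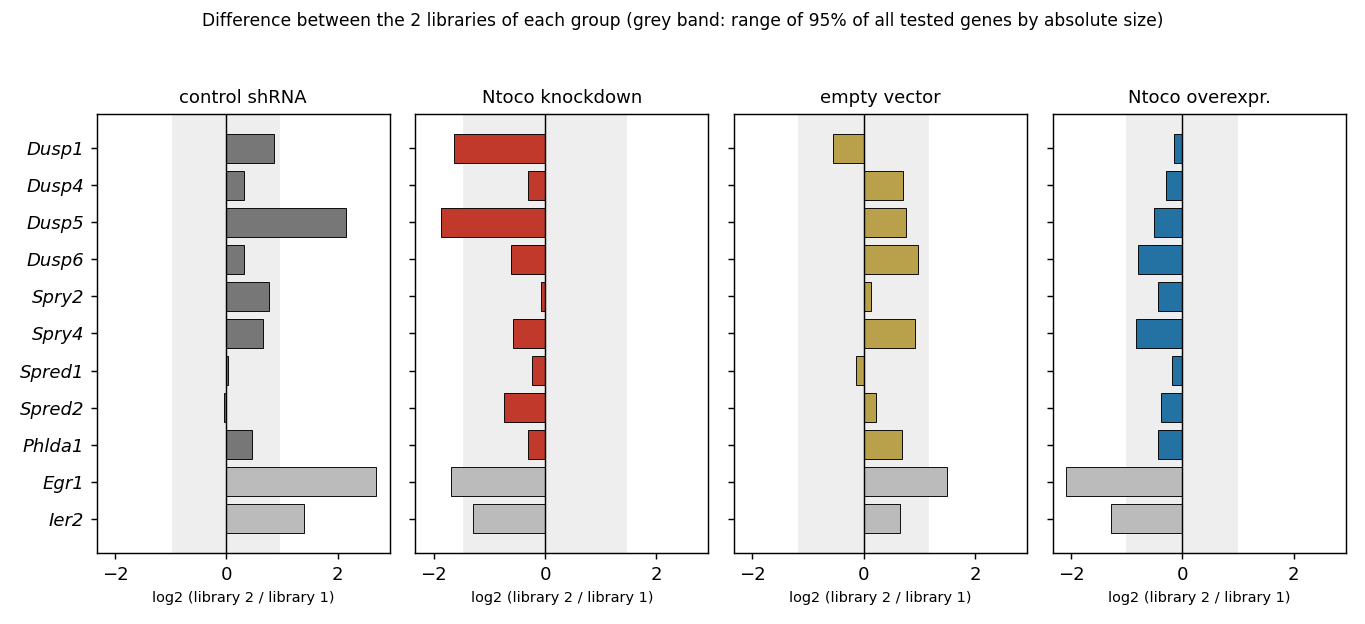
Log2 ratio of library 2 to library 1 (horizontal axis) in each of the 4 groups for the 9 genes and for Egr1 and Ier2 (light grey bars), with a grey band that holds 95% of all tested genes by absolute size. Egr1 and Ier2 were among the genes most like the members' mean, and other genes raised by ERK did not all share their direction. All 9 bars point to lower values in library 2 of the knockdown and overexpression groups, and 8 of 9 to higher values in the control shRNA group. Dusp5 leaves the band in the control shRNA and knockdown groups, and Dusp1 leaves it in the knockdown group.

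Likeness of pattern was described with Pearson's r of log2 CPM over the 8 libraries, which share their groups, so no p is given. Among the 36 pairs of members 28 had r above 0, and the median was 0.43. The share over all gene pairs was not computed. Dusp4 and Phlda1 were the most alike (r = 0.97, Spearman's rho = 0.93), with r = 0.89 without vector library 2 and knockdown library 2, the libraries farthest from the median. Dusp6 and Spry4 followed (r = 0.83, rho = 0.88), with r = 0.84 without the libraries farthest from the Dusp6 median and r = 0.59 without those farthest from the Spry4 median. Spred1 and Spred2 were each other's nearest member (r = 0.75, rho = 0.76; r = 0.86 or 0.60 without the libraries farthest from the median of Spred1 or Spred2), while Spred1 and Phlda1 had the lowest value (r = -0.52, rho = -0.31).

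The 5 other genes nearest to the mean of the members' standardised levels were H1f2, Egr1, Errfi1, Ier2 and Vmn2r29. Errfi1, an inducible feedback inhibitor of ERBB receptors, had r = 0.94 (rho = 0.95) and levels of 67.6, 193, 143, 54.7, 85.6, 184, 145 and 81.4 CPM, in the order control shRNA, knockdown, vector and overexpression, library 1 before library 2. Egr1, an immediate early transcription factor, had r = 0.94 (rho = 0.90), with 260 and 1683 CPM in the control shRNA pair of libraries, and the knockdown pair stood at 554.6 and 172 CPM. The vector pair stood at 241 and 678 CPM and the overexpression pair at 770 and 181 CPM. The immediate early gene Ier2 had r = 0.93 (rho = 0.88), and the linker histone gene H1f2 r = 0.95 (rho = 0.98) at 2.71 to 8.51 CPM. Vmn2r29 (r = 0.92, rho = 0.90) stayed under 1 CPM and belongs to a large family of vomeronasal receptors, so its counts are uncertain. Without knockdown library 2 and overexpression library 2, the libraries farthest from the median of the members' mean, r was between 0.89 and 0.97 for the 5. They were picked for the highest r over these same libraries, so high values among the remaining libraries follow in part from that choice.

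The rest of the pathway was read from 8 lists, in which edgeR called 0 of the 81 tested genes in the knockdown and overexpression comparisons. At an unadjusted p under 0.05 there were 3 of the 81 in the knockdown and 7 of the 81 with overexpression, beside 3.12% and 7.62% of all genes, which is near the background. DESeq2 and limma-voom called 0 in both comparisons. Among 6 other MAP kinase phosphatases, 3 were lower in both knockdown libraries, Dusp2, Dusp8 and Dusp16 (14.1% of all genes were), and the median log2 ratio was -0.26. That median was -0.032 without control shRNA library 1, -0.40 without control shRNA library 2 and -0.42 without knockdown library 1. Dusp2, an inducible nuclear phosphatase, had 8.33 and 12.1 CPM in control shRNA libraries 1 and 2, against 7.01 and 6.95 CPM in knockdown libraries 1 and 2 (log2 ratio -0.55, SE 0.30). With the vector it reached 11.9 and 11.4 CPM, with overexpression 8.45 and 7.06 CPM (-0.58, SE 0.30), the lowest log2 ratio of its list there. Dusp8 had the lowest in the knockdown (-0.65, SE 0.41), and Dusp10, which acts on JNK and p38, the highest in both comparisons (0.07 and 0.06). Spry3 and Spred3, the remaining relatives, had log2 ratios of 0.58 and 0.31 in the knockdown and of 1.62 and 0.46 with overexpression. Spry3 was low, at 0.374 to 3.35 CPM.

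Upstream of the members, 11 of 18 growth factor ligands were tested, with a median log2 ratio of 0.26 in the knockdown and -0.60 with overexpression. Fgf21 was highest in the knockdown (1.99, SE 1.21) and lowest with overexpression (-2.30, SE 1.22), but its highest values came from knockdown library 2 (36.7 CPM) and vector library 1 (41.7 CPM), far above their partners (3.71 and 9.79 CPM). The epidermal growth factor relative Ereg was lowest in the knockdown (-0.98, SE 0.69), and Fgf7 highest with overexpression (0.40, SE 0.80). Without knockdown library 2 the ligand median was -0.25, and without vector library 2 the overexpression median was -0.074. Among 8 tested receptors of 15, the medians were -0.29 and 0.04. The receptor kinase Met was highest (0.45, SE 0.20) and Erbb3 lowest (-0.93, SE 0.61) in the knockdown. With overexpression Flt1 was highest (0.48, SE 0.61) and Fgfr1, a fibroblast growth factor receptor, lowest (-0.48, SE 0.21).

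The cascade's genes lay on both sides of 0. The 16 adaptors and Ras regulators had medians of -0.02 in the knockdown and -0.18 with overexpression, with Rras highest (0.53) and Cbl lowest (-0.53) in the knockdown. With overexpression 12 of the 16 were below 0 (50.5% of all genes), 7 were lower in both libraries (23.1%) and 2 higher (24.1%). Hras was highest there (0.65, SE 0.31) and Nf1, which encodes the neurofibromin that works with Spred proteins, lowest (-0.77, SE 0.25). In the vector comparison Hras had -0.50 (SE 0.31) and Nf1 0.42 (SE 0.25). Of the 16, 8 were higher in both vector libraries (24.6% of all genes) and 2 lower (26.5%). The 13 RAF, MEK and ERK kinases and scaffolds had medians of 0.01 and 0.12, with Rps6ka3 highest in the knockdown (0.40), and Rps6ka1 (0.59) and Braf (-0.73) at the ends with overexpression. In the overexpression comparison 10 of these 13 did not overlap (47.2% of all genes), 5 higher and 5 lower. In the vector comparison 12 of the 13 did not overlap (51.1% of all genes), 6 higher and 6 lower, with Rps6ka1 at -0.85 and Braf at 0.40. The 2 comparisons share the vector libraries, so a departure of the vector libraries and an effect of overexpression cannot be told apart. The 11 JNK and p38 kinases had medians of -0.10 and 0.02, with Map3k1 (0.37) and Mapkapk2 (-0.34) at the ends in the knockdown and Map2k6 (0.73) and Map3k1 (-0.53) with overexpression.

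The ERK output genes are those whose transcription active ERK is known to raise. In the knockdown all 14 tested of 16 had a log2 ratio below 0 (49.4% of all genes did), with a median of -0.36. The count rested on single libraries: 8 were below 0 without control shRNA library 1, 9 without control shRNA library 2, 11 without knockdown library 1 and 10 without knockdown library 2. It was 13 with RLE or upper-quartile scaling, where Etv5 was above 0. In 3 of them, Ccnd1, Etv4 and Ier3, both knockdown libraries were below both control shRNA libraries (14.1% of all genes). Egr1 had the lowest log2 ratio (-1.42, SE 1.02) and Etv5, an ETS factor induced by ERK, the highest (-8.2e-05, SE 0.40). With overexpression the median was -0.10, and Emp1 (0.62, SE 0.60) and the cytokine gene Lif (-1.15, SE 0.46) were at the ends. Without vector library 2 that median was 0.24, without vector library 1 it was -0.42, and without overexpression library 1 it was -0.46. The knockdown median was -0.81 without knockdown library 1 and between -0.45 and -0.42 without each of the other control shRNA and knockdown libraries.

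By library the members and the output genes were both lowest in knockdown library 2. Relative to the control shRNA mean, the members' median was -0.23 and 0.23 in the control shRNA libraries, 0.14 and -0.67 in the knockdown, -0.17 and 0.51 in the vector, and -0.01 and -0.36 in the overexpression libraries. The medians of the output genes were 0.18 and -0.18, -0.30 and -0.78, -0.32 and 0.37, and 0.20 and 0.02 in the same order. Of the 14 output genes, library 2 was the higher in 6 (control shRNA), 6 (knockdown), 12 (vector) and 5 (overexpression). Of the 9 members it was the higher in 8, 0, 7 and 0. The list of RAF, MEK and ERK kinases and scaffolds stayed within -0.18 to 0.22 in all 8 libraries. Marker sums of other cell types moved with the members in some groups. The fibroblast sum came mostly from Col1a1 and Col1a2, and the astrocyte sum from Aldh1l1 and S100b. The microglia and macrophage sum came from Csf1r, Cx3cr1 and Tmem119. Aqp4 and P2ry12 had no row, and Aif1, Ptprc and Itgam stayed under 3 counts in every library. The sums thus do not show that these cell types were present. Knockdown library 2 had the lower sums of its group, at 1464 against 4848 CPM for fibroblast, 14.1 against 53.6 CPM for astrocyte and 2.37 against 7.74 CPM for microglia and macrophage markers. Of the tested markers in these lists, Gfap (1.23 against 0.680 CPM) and Slc1a2 (0.986 against 0.366 CPM) were higher there, and the others lower. The endothelium sum was also higher there, at 2.37 against 0.419 CPM. Vector library 2, where the members' median was highest, had the higher sums of its group, at 2317 against 1334, 30.8 against 8.40 and 4.28 against 2.09 CPM. Gfap (0.670 against 1.18 CPM), Pdgfra (28.3 against 53.9 CPM) and Tmem119 (0.412 against 0.481 CPM) were lower there, and the other tested markers of these lists higher. Overexpression library 1, where the members' median was the higher of its group, had 2341 against 2114, 39.6 against 32.1 and 7.26 against 5.52 CPM. Col1a1, Pdgfra, Gfap and Slc1a2 went the other way there, as did the endothelium sum, at 0.567 CPM in library 1 against 1.43 CPM in library 2. With the vector the endothelium sum was 1.75 CPM in library 2 against 1.60 CPM in library 1. The control shRNA libraries differed little in these sums (3393 and 3360, 45.5 and 42.9, and 7.54 and 6.90 CPM), while their members' medians were -0.23 and 0.23. The part of these markers in the members' values was not tested.

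**Figure D4:**
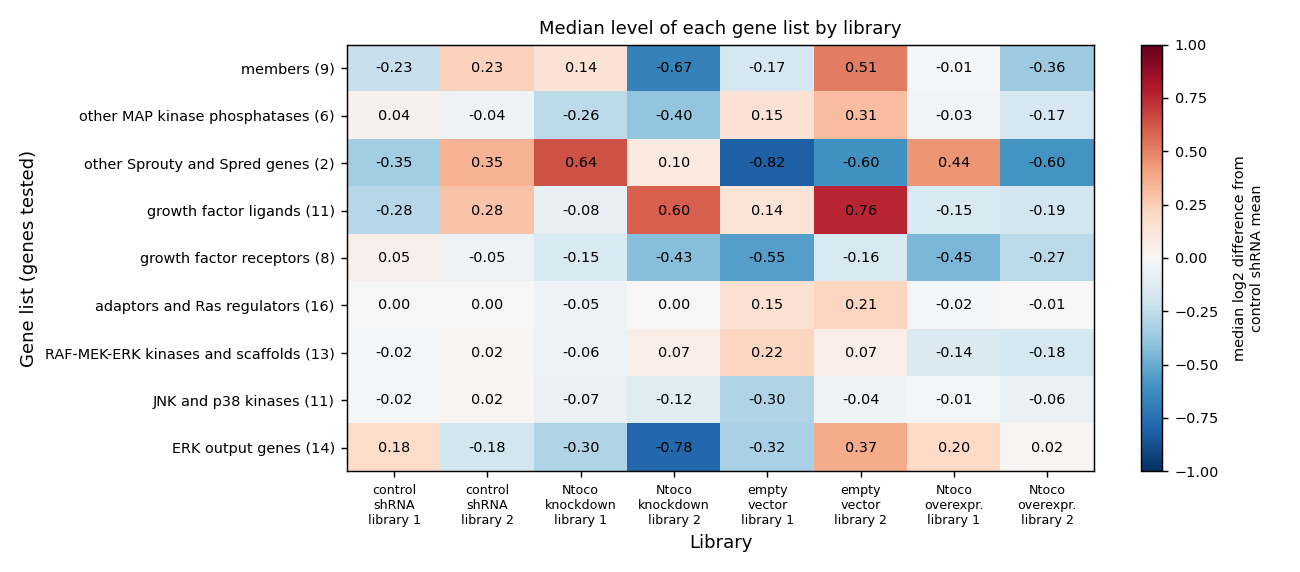
Median log2 difference from the control shRNA mean (colour and number, log2 of CPM plus 0.5) for the 9 members and 8 pathway lists (rows, with the number of genes tested) in the 8 libraries (columns). The members' row runs from -0.67 in knockdown library 2 to 0.51 in vector library 2, and the row of RAF, MEK and ERK kinases from -0.18 to 0.22.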

How the data were processed

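The deposited tables hold raw read counts and FPKM values for each gene, with no annotation named. Per the submitters' processing notes, the tools were HISAT2, HTSeq, Trimmomatic, Cufflinks and DESeq, with build mm10. Versions, roles and the strand setting were not given in the sources used. Antisense overlaps may therefore share reads. Per the labels' protocols, TRIzol RNA went into a stranded library kit for polyadenylated RNA. In 12615 of 12615 genes counted in all 8 libraries, the deposited FPKM was the count divided by 1 gene length (within 0.5 base) and the library total.

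Column names were matched to the labels through what each name states: an shRNA control, a targeting shRNA, a pcDNA vector or an overexpression. Their abbreviation for the target (AK) is not explained, and pcDNA names a plasmid where the label has Lv, so how Ntoco was raised is uncertain. There were 0 other columns of values. The 2 libraries of a group differed by more than counting noise (mean chi-square per gene 62.1 to 156), and each entered the models on its own. Separate cultures are not stated, so a p-value reflects spread among these libraries only, which may be technical.

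Genes were filtered with filterByExpr (minimum count 10), scaled with TMM and tested with edgeR 4.0.16 (R 4.3.3), by the quasi-likelihood F-test in 1 model of the 4 groups (4 residual and 3.85 prior degrees of freedom). Benjamini-Hochberg adjustment covered the 12115 genes. Intervals are 95% from 7.85 degrees of freedom. Alternatives were DESeq2 1.42.0, limma-voom (limma 3.58.1), other scalings, no filter, 2-group models, a replicate block and leaving out each library. Values by library use log2 of CPM plus 0.5. Coordinates and promoters are RefSeq's on GRCm38.p6, exon lengths GENCODE M21's.

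The members, lists and tests were chosen with earlier results of these data known. Named genes are the members, the highest and lowest log2 ratio of each list in the knockdown and overexpression comparisons, and the 5 genes most like the members' mean. Of these, 1 gene is not reported here. Those named because their libraries did not overlap (Dusp16, Ccnd1, Etv4 and Ier3) were chosen after their values were seen. Marker sums for astrocytes were 8.40 to 53.6 CPM, for microglia and macrophages 2.09 to 7.74, for the oligodendrocyte lineage 9.25 to 13.0 and for endothelium 0.419 to 2.37.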

Additional observations from a re-analysis of the deposited data

How the results depend on the processing

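The main limit is 2 libraries per group. None of the 9 members was called under any alternative. Of the 567 recomputed log2 ratios of single members 533 kept their direction. That count includes models without a library outside the comparison, which leave a ratio almost unchanged. For Dusp1 in the knockdown it was -1.01 without either vector library, as in the main model. The count is therefore not a measure of how stable the log2 ratios were. DESeq2 called 15 genes in the knockdown, 1 with overexpression, 281 for the vector and 11 for the difference of effects, where edgeR called 0 each. Models of the 2 compared groups alone called 1 gene with overexpression and 128 for the vector, and the unfiltered model 3 for the vector. Leaving out each library gave 0 to 1 genes in the knockdown (1 without knockdown library 1), 0 to 24 with overexpression (24 without overexpression library 2), 0 to 97 for the vector (97 and 96 without overexpression libraries 1 and 2) and 0 to 1 for the difference (1 without knockdown library 1). The cause was not tested.

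The members' median knockdown log2 ratio ranged from -0.73 to 0.14 (0.14 without knockdown library 2). Signs reversed when a library was left out, with knockdown log2 ratios of -1.77 to 1.06 for Dusp5, -0.29 to 0.34 for Dusp6, -0.13 to 0.64 for Spry2, -0.087 to 0.15 for Spred1 and -0.60 to 0.14 for Spred2. With overexpression they were -0.033 to 0.52 for Dusp1, -0.77 to 0.020 for Dusp5, -0.81 to 0.22 for Dusp6 and -0.059 to 0.33 for Spred2. For the vector they were -0.18 to 0.53 for Dusp4, -0.72 to 1.53 for Dusp5, -0.14 to 0.85 for Dusp6 and -0.50 to 0.44 for Spry4. For the difference of effects they were -1.49 to 1.34 for Dusp5, -0.87 to 0.16 for Dusp6, -0.80 to 0.23 for Spry4 and -0.15 to 0.55 for Phlda1. With upper-quartile scaling the vector log2 ratio was -0.050 for Dusp5 and -0.0059 for Spry4. Other scalings moved the median of all genes by at most 0.0495 in absolute value.

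The library numbers as given did not pair the libraries in a uniform way. Over the 6 pairs of groups same-numbered deviations correlated from -0.36 (knockdown and vector) to 0.36 (control shRNA and knockdown). They were -0.22 for the vector and overexpression, -0.12 for control shRNA and vector, 0.12 for knockdown and overexpression, and -0.02 for control shRNA and overexpression. Whether libraries of different groups share a batch was not tested. With a replicate block edgeR called 0 genes in every comparison, as without it, and the Dusp5 difference of effects was -0.012. A crossed block, with the vector numbers swapped, was added after the correlations were seen and called 1 gene, for the vector. At an unadjusted p under 0.05 edgeR had more genes with it than without a block. There were 572 against 378 in the knockdown, 1728 against 923 with overexpression, 2193 against 1520 for the vector and 1523 against 838 for the difference. Log2 ratios reversed under the crossed block to -0.022 for Dusp6 in the knockdown and to -0.14 and -0.072 for Dusp5 and Spry4 for the vector.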
